A study of Mus musculus with 15 samples.

Results

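The 10 genes described here carry fatty acids into skeletal muscle and oxidize them in its mitochondria, or set the switch between glucose and fat as fuel. They were chosen by name, as Cd36, Lpl, Fabp3, Cpt1b, Cpt2, Acadm, Acadl, Acadvl, Hadha and Pdk4, from 39179 gene identifiers in the count files, and each name matched 1 identifier that was counted in all 15 mice. RNA of quadriceps muscle had been sequenced from C57BL/6 mice homozygous for wild-type Mrps5 (WT) or for the V338Y exchange in Mrps5, a protein of the small subunit of the mitochondrial ribosome. There were 4 WT and 4 V338Y mice at 3 mo and 3 WT and 4 V338Y mice at 19 mo, and both genotypes had the C57BL/6 background and received no treatment that the labels name. The exchange was knocked in, and is not limited to muscle. Mrps5 was counted at 15 to 27.5 CPM over all mice, and its count does not show which allele was carried. Values are given as CPM, the counts of a gene relative to the size of its library with TMM factors applied. The libraries held 8250653 to 18968132 counts. The lowest count behind any value of the 10 genes was 249, so that counting noise was small against the differences between mice.

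Working muscle takes much of its energy from fatty acids. Lipoprotein lipase frees them from circulating triglyceride, the receptor CD36 helps them across the membrane, and a fatty acid binding protein carries them through the cytosol. They enter the mitochondrion as carnitine esters and are shortened step by step in beta-oxidation, whose genes are known targets of PPAR nuclear receptors and of ERR alpha with the coactivator PGC-1 alpha. Pyruvate dehydrogenase kinase 4 closes the entry of glucose carbon into the same mitochondria, and its transcript is known to climb in fasting. Oxidative muscle fibres hold more of this machinery than the fast glycolytic fibres that make up most of the mouse quadriceps.

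Promoters of 8 of the 10 genes were found in RefSeq sequence of GRCm38.p6. In the 250 bases before the RefSeq start, the letters AGGTCA on either strand, the core hexamer of many nuclear receptor sites, occurred in 3 of the 8, Cd36, Acadm and Acadvl, and in 14.0% of 32851 promoter windows of that length. They are printed 5′ to 3′ on the strand of the gene, here the minus strand each time, because they show where the hexamer lies, with its letters in capitals. The Cd36 window (chr5:17835897-17836146) lies inside the annotated gene, before its shorter transcripts, while those of Acadm (chr3:153944644-153944893) and Acadvl (chr11:70015429-70015678) lie before the annotated gene.
Cd36: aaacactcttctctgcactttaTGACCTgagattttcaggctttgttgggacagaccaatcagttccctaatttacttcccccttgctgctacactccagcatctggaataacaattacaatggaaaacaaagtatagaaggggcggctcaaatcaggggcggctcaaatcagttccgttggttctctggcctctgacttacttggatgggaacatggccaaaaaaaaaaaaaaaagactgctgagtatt
Acadm: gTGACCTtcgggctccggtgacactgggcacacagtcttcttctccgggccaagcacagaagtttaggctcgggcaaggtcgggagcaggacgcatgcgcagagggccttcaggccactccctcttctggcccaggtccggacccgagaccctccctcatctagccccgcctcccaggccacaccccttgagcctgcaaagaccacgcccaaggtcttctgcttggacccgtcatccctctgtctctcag
Acadvl: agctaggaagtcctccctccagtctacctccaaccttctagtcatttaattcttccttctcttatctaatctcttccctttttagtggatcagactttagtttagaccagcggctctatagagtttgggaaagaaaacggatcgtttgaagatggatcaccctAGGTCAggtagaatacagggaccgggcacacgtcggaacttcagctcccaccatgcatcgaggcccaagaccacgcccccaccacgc
The hexamer ended 223 bases before the start of Cd36, 244 bases before that of Acadm and 82 bases before that of Acadvl. The forkhead letters GTAAACA, searched on both strands like the following, were in 0 of the 8 windows and in 3.17% of all, and AGAACA, part of glucocorticoid receptor sites, in 0 of the 8 and in 16.1% of all. GGGCGG, the Sp1 letters, was in 4 of the 8, Cd36, Cpt2, Acadl and Hadha, and in 32.7% of all. A match describes these letters alone, and neither binding nor promoter activity was measured.

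Several libraries bear on what follows. The WT and V338Y mice numbered 5 at 19 mo, with no link in the labels beyond that number, stood apart in muscle fibre transcripts. Myh2, the myosin of oxidative type 2A fibres, was counted at 4246 CPM in WT mouse 5 and at 4880.3 CPM in V338Y mouse 5, and at 243 to 878 CPM in the other 13 mice. The 8 slow and oxidative fibre markers summed to 5054 and 7567 CPM in these mice, and to 311 to 1051 CPM in the others, and no marker of the list was at 0 in any mouse. Myh4, the fast glycolytic type 2B myosin, was at 40204 CPM in WT mouse 5 and at 22410 CPM in V338Y mouse 5, against 39868 to 79603 CPM in the others. Markers of skeletal muscle as a whole were abundant in all 15 libraries, the 6 genes summing to 119122 CPM or more. They were nevertheless lower with age in part. In V338Y mice the median sum was 229225 CPM at 3 mo and 144535 CPM at 19 mo, and Ckm (-1.14), Tnnt3 (-1.01), Acta1 (-0.69) and Pygm (-0.56) fell on the log2 scale. In WT mice the sums were 217927 and 185251 CPM, and Ckm (-0.63) and Tnnt3 (-0.55) fell (edgeR). Of the 8 endothelial markers 3 rose with age in WT and 4 in V338Y mice, and of the 6 macrophage markers 3 and 4. Of all genes tested 2505 of 13657 and 3389 of 13868 rose. In WT mice Tie1 (0.01), Tek (0.04), Emcn (0.02) and Itgam (0.06) of these markers stayed near 0 on the log2 scale. The part of these shifts in the age differences below was not tested. A difference in the number of cells of a type and a difference in RNA per cell cannot be told apart in such bulk tissue. The ages also differed in sex-linked transcripts. Xist reached 0.575 CPM at most in the 3 mo mice and was at 506 to 631 CPM at 19 mo, while the Y-linked Ddx3y was at 163 to 202 CPM at 3 mo and at most at 0.0827 CPM at 19 mo, although the study's methods describe the 3 mo animals as female. Age and sex therefore cannot be told apart in any comparison of the ages below.

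At 3 mo the members already varied somewhat more between mice than most genes did. Within WT mice the highest value of a gene was 1.11 times (Hadha) to 2.37 times (Fabp3) the lowest, with a median over the members of 1.34, against 1.22 for the 7403 genes with a mean of at least 10 CPM. Within V338Y mice it was 1.18 times (Hadha) to 3.67 times (Pdk4), with a median of 1.36 against 1.21. At 19 mo the same ratio had a median over the members of 2.32 in WT and 2.64 in V338Y mice, while for all 7403 genes it was 1.22 and 1.35. The members thus differed between mice of 1 group at 19 mo by more than most genes did. Mouse 5 had the highest value of all 10 genes in WT and in V338Y mice alike, though it was highest for 39.4% of the 7403 genes in WT and 29.6% in V338Y mice. The lowest value lay in WT mouse 2 for all 10 genes, and in V338Y mouse 3 or mouse 4 for 5 genes each, the order of V338Y mice 2, 3 and 4 differing between genes.

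**Figure D1:**
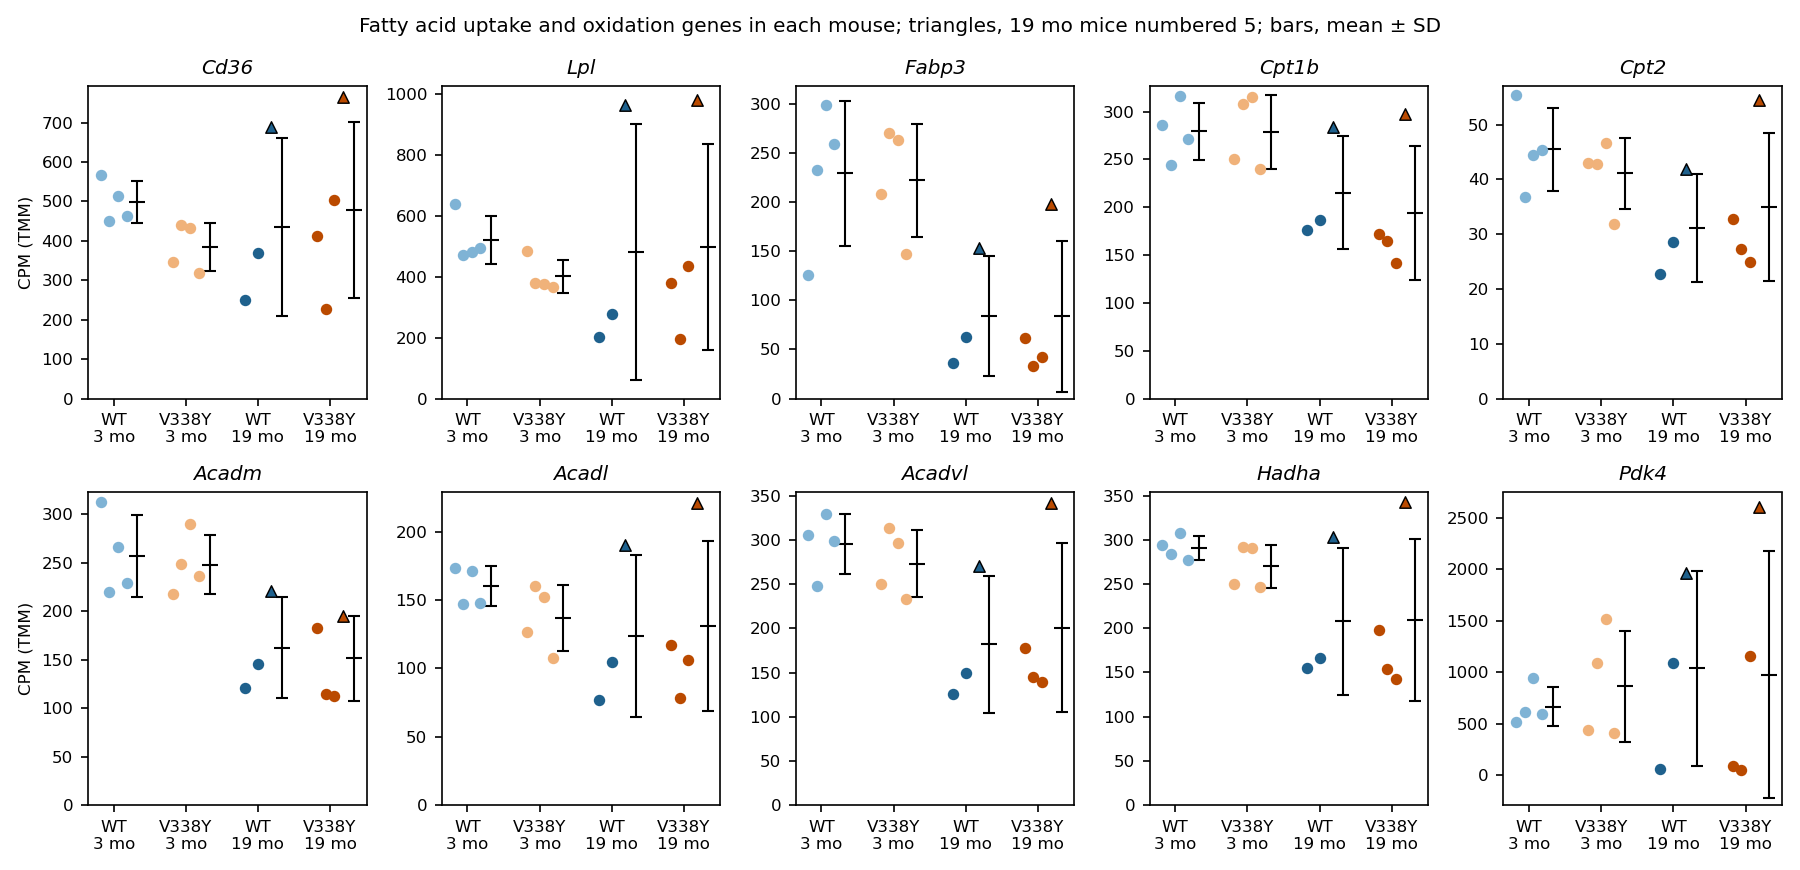
CPM of the 10 genes (y axis, starting at or below 0) in each mouse of the 4 groups (x axis), with the mean ± SD of the group beside the points. Triangles mark the 19 mo mice numbered 5, which hold the highest value of their group in all 10 panels.

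Per kilobase of 1 annotated transcript, the scale on which genes can be compared, Fabp3 was the most abundant member at 3 mo, with a median of 299 CPM per kb in WT and 286 in V338Y mice. Pdk4 was second at that age, at 174 and 219 CPM per kb. At 19 mo Pdk4 had the highest median, 313 CPM per kb in WT and 179 in V338Y mice, although its range there, 18.1 to 563 and 15.7 to 747 CPM per kb, spanned those of all other members but Cpt2. Fabp3 was the third in WT mice, at 76.3, and the sixth in V338Y mice, at 63.4 CPM per kb. Cpt2 was the least abundant in every group, with medians from 12.1 to 18.9 CPM per kb, and its range did not reach that of Hadha, the ninth in each group. The other neighbours in the order overlapped in their ranges over mice, except that Lpl lay above Cpt1b and Acadl above Hadha in WT mice at 3 mo, and Lpl above Acadl in V338Y mice at 3 mo.

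The comparison of the ages asks which transcripts of adult muscle differ in old animals of each genotype. Of the 10 genes, 3 were lower at 19 mo than at 3 mo in WT mice, namely Fabp3, Acadm and Acadvl, and 2 in V338Y mice, Fabp3 and Acadm (edgeR quasi-likelihood test, Benjamini-Hochberg adjusted p below 0.05 over all genes tested), and 0 were higher. Of all genes tested, 17.8% were lower by this rule in WT and 22.5% in V338Y mice, and 36.2% and 46.9% were called in either direction, so a share of 3 and of 2 in 10 lies near the background. The median log2 fold change of the 10 genes was -0.43 in WT and -0.29 in V338Y mice, against 0.02 and 0.07 for all genes tested. The 6 genes of mitochondrial oxidation were all on the lower side, from -0.70 to -0.37 in WT and from -0.70 to -0.05 in V338Y mice. Of the members 0 in WT mice and 1 in V338Y mice, Acadm, did not overlap between the ages, against 43.4% and 42.2% of the genes tested.

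Fabp3, the fatty acid binding protein of heart and red muscle, had the largest difference. Its CPM were 126, 233, 299 and 259.5 in WT and 208, 270.0, 264 and 147 in V338Y mice at 3 mo. At 19 mo they were 36.6, 62.8 and 153 in WT mice 2, 4 and 5, and 62.0, 32.8, 42.3 and 198 in V338Y mice 2, 3, 4 and 5. Mouse 5 of each genotype lay within the range of the 3 mo mice and the other 5 mice lay far below it. The fold change on the log2 scale was -1.45 ± 0.46 (SE) in WT mice (edgeR adjusted p = 0.034) and -1.4 ± 0.51 in V338Y mice (edgeR adjusted p = 0.045). Fabp3 is annotated on chromosome 4 of GRCm38, from 130308595 to 130315463 on the plus strand, where its ends overlap those of Zcchc17 and of the scarcely counted Gm10570.

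Cd36 and Lpl, which bring fatty acids to the fibre, were called with age in neither genotype. Cd36 was counted at 249, 369 and 688 CPM in WT mice 2, 4 and 5 at 19 mo. The V338Y mice 2, 3, 4 and 5 had 412, 228, 504 and 765 CPM. At 3 mo it had been at 566, 449.5, 513 and 464 CPM in WT and at 346, 441, 432 and 318 CPM in V338Y mice. The 19 mo values thus lay on both sides of the 3 mo values, and the log2 fold changes were -0.19 ± 0.28 and 0.33 ± 0.30 (edgeR adjusted p = 0.62 and 0.40). Lpl, secreted lipoprotein lipase, was at 202, 278 and 963 CPM in the 19 mo WT mice and at 379.9, 195, 436 and 979 CPM in the 19 mo V338Y mice. Against 637, 471, 481 and 494 CPM in WT and 482, 378, 376 and 366 CPM in V338Y mice at 3 mo, mouse 5 had the highest Lpl of its genotype and WT mouse 2 and V338Y mouse 3 the lowest. Its log2 fold changes were -0.11 ± 0.45 and 0.33 ± 0.39 (edgeR adjusted p = 0.86 and 0.51). Endothelium and fat also express both genes. The 8 endothelial markers summed to 188 to 237 CPM at 3 mo and 246 to 412 CPM at 19 mo. The 6 adipocyte markers summed to 110 to 708 CPM and 129 to 834 CPM. No marker was at 0 in any mouse. The median adipocyte sum went from 380 to 172 CPM with age in WT mice and from 205 to 415 CPM in V338Y mice. The log2 age changes of these 6 ran from -1.46 (Cidec) to -0.34 (Lep) in WT mice, with Adipoq called (edgeR). In V338Y mice they ran from 0.45 (Cidec) to 2.05 (Plin1), with Plin1 and Retn called. The part of these cells in the values was not tested.

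The carnitine shuttle was represented by Cpt1b, the muscle enzyme that makes the carnitine esters at the outer membrane, and Cpt2, which turns them back to acyl-CoA inside. Cpt1b was counted at 286, 245, 316 and 272 CPM in WT and at 250.5, 308, 315 and 240.3 CPM in V338Y mice at 3 mo. At 19 mo it was at 176, 186 and 283 CPM in WT mice 2, 4 and 5, while V338Y mice 2 to 5 had 172, 164, 142 and 297 CPM. All 19 mo mice but those numbered 5 were below every 3 mo mouse of their genotype. The log2 fold changes of -0.38 ± 0.17 and -0.51 ± 0.22 missed the threshold (edgeR adjusted p = 0.11 and 0.078). Cpt2 ranged from 36.8 to 55.4 CPM in WT and from 31.8 to 46.7 CPM in V338Y mice at 3 mo, and was at 22.8, 28.6 and 41.9 CPM in WT mice 2, 4 and 5 at 19 mo, when V338Y mice 2 to 5 had 32.9, 27.2, 25 and 54.5 CPM. Its log2 fold changes were -0.55 ± 0.21 and -0.22 ± 0.23 (edgeR adjusted p = 0.063 and 0.45). Reads of Cpt1b and its neighbour Chkb, which an annotated readthrough transcript joins, may have been divided between them by the estimation of counts.

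The acyl-CoA dehydrogenases begin each round of beta-oxidation, Acadm for medium, Acadl for long and Acadvl for very long chains. Acadm was at 312, 220.1, 266 and 229 CPM in WT and at 217, 248, 289.8 and 236 CPM in V338Y mice at 3 mo. At 19 mo it was at 121, 145 and 221 CPM in WT mice 2, 4 and 5, and the 4 V338Y mice had 183, 115, 113 and 195 CPM in the order of their numbers, so that the V338Y groups did not overlap and in WT mouse 5 alone reached the 3 mo values. Acadm fell by 0.66 ± 0.21 on the log2 scale in WT and by 0.70 ± 0.20 in V338Y mice (edgeR adjusted p = 0.033 and 0.016). Acadvl had a mean of 295 ± 33.9 CPM (SD, n = 4) in WT mice at 3 mo and fell to 182 ± 77.7 CPM (SD, n = 3), with 126, 150 and 271 CPM in mice 2, 4 and 5. Its fold change was -0.70 ± 0.24 in WT mice (log2, edgeR adjusted p = 0.046) and -0.43 ± 0.27 in V338Y mice (edgeR adjusted p = 0.21), in which the 19 mo values were 177, 145, 139 and 342 CPM against 234 to 313 CPM at 3 mo. Acadl was at 76.7, 105 and 190.1 CPM in WT and at 117, 78.6, 106 and 221 CPM in V338Y mice at 19 mo, against 147 to 174 and 107 to 160.0 CPM at 3 mo. The ranges of Acadl at the ages overlapped, with log2 fold changes of -0.37 ± 0.26 and -0.05 ± 0.28 (edgeR adjusted p = 0.28 and 0.90).

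Hadha, a subunit of the trifunctional protein that completes the round for long chains, was the steadiest member at 3 mo, at 294, 284, 308 and 277 CPM in WT and 250.1, 291, 291 and 247 CPM in V338Y mice. At 19 mo the WT mice 2, 4 and 5 had 155, 166 and 304 CPM, and the V338Y mice 2, 3, 4 and 5 had 198, 154, 142 and 342 CPM. The other 5 mice lay below every 3 mo mouse, while mouse 5 lay within the 3 mo range in WT and above it in V338Y mice. The log2 fold changes were -0.48 ± 0.21 and -0.36 ± 0.25 (edgeR adjusted p = 0.10 and 0.26).

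Pdk4, the pyruvate dehydrogenase kinase of fasting, varied over the widest range. At 3 mo it was at 515, 613, 943 and 599 CPM in WT and at 437, 1086, 1519 and 414 CPM in V338Y mice. At 19 mo it was at 63.1, 1089 and 1960.4 CPM in WT mice 2, 4 and 5, and 93.3, 54.6, 1157 and 2604 CPM were counted for V338Y mice 2, 3, 4 and 5. WT mouse 2 and V338Y mice 2 and 3 were far below all 12 others, and the highest value of a group was 31.1 times the lowest in WT and 47.7 times in V338Y mice, a ratio that 0.270% and 0.297% of the 7403 genes reached. The log2 fold changes were 0.64 ± 0.76 and 0.19 ± 1.0, so an age difference of either sign lay within the spread (edgeR adjusted p = 0.54 and 0.89). In same-numbered mice at 19 mo the ratio of Pdk4 in V338Y over WT was 1.48 for mice 2, 1.06 for mice 4 and 1.33 for mice 5. V338Y mouse 3, at 54.6 CPM, was nearer to WT mouse 2, at 63.1 CPM, than V338Y mouse 2 was, at 93.3 CPM.

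**Figure D2:**
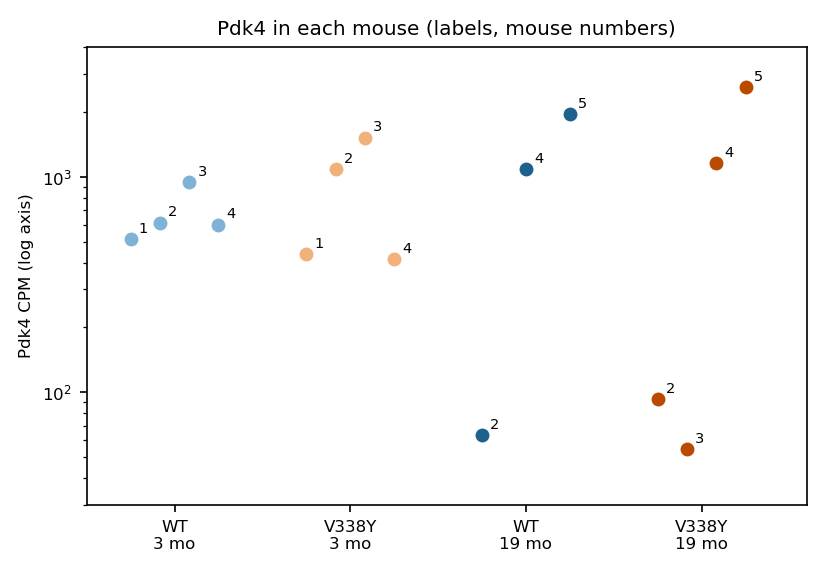
Pdk4 CPM (y axis, log scale) of each mouse in the 4 groups (x axis), each point labelled with the number of the mouse. WT mouse 2 and V338Y mice 2 and 3 at 19 mo lie between 54.6 and 93.3 CPM and every other mouse lies at 414 CPM or above.

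Because mouse 5 stood apart in both old groups, the ages were also compared without it, a choice made after its values were seen. Mouse 5 was the highest of its group for all 10 genes, so leaving it out lowers their 19 mo means by construction. It was highest for 39.4% of the 7403 genes in WT and 29.6% in V338Y mice, so the shares of all genes given here are no like background. The calls without it describe the remaining mice and cannot count as support for an age difference. In WT mice 9 of the 10 genes were then lower at 19 mo, all but Pdk4, where 14.9% of the genes tested were lower, and the median log2 fold change of the members was -0.85. In V338Y mice 6 of the 10 were lower, Fabp3, Cpt1b, Cpt2, Acadm, Acadvl and Hadha, where 22.5% of the genes tested were lower, and the median was -0.74. Hadha, for example, then had a log2 fold change of -0.87 ± 0.09 in WT and -0.69 ± 0.14 in V338Y mice (edgeR adjusted p = 0.000504 and 0.00295), and Fabp3 one of -2.22 ± 0.36 and -2.26 ± 0.27. Lpl was at -1.12 ± 0.17 in WT mice without mouse 5 (edgeR adjusted p = 0.00220) and at -0.22 ± 0.24 in V338Y mice (edgeR adjusted p = 0.47). Without WT mouse 2, the lowest of its group, the only called member was Pdk4, then higher at 19 mo with a log2 fold change of 1.19, and the number of members called over all the mice left out in turn ran from 0 to 9 in WT and from 1 to 6 in V338Y mice. The calls of Fabp3, Acadm and Acadvl in WT and of Fabp3 in V338Y mice were each lost when some single mouse was left out, whereas Acadm was called in V338Y mice whichever mouse was left out.

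**Figure D3:**
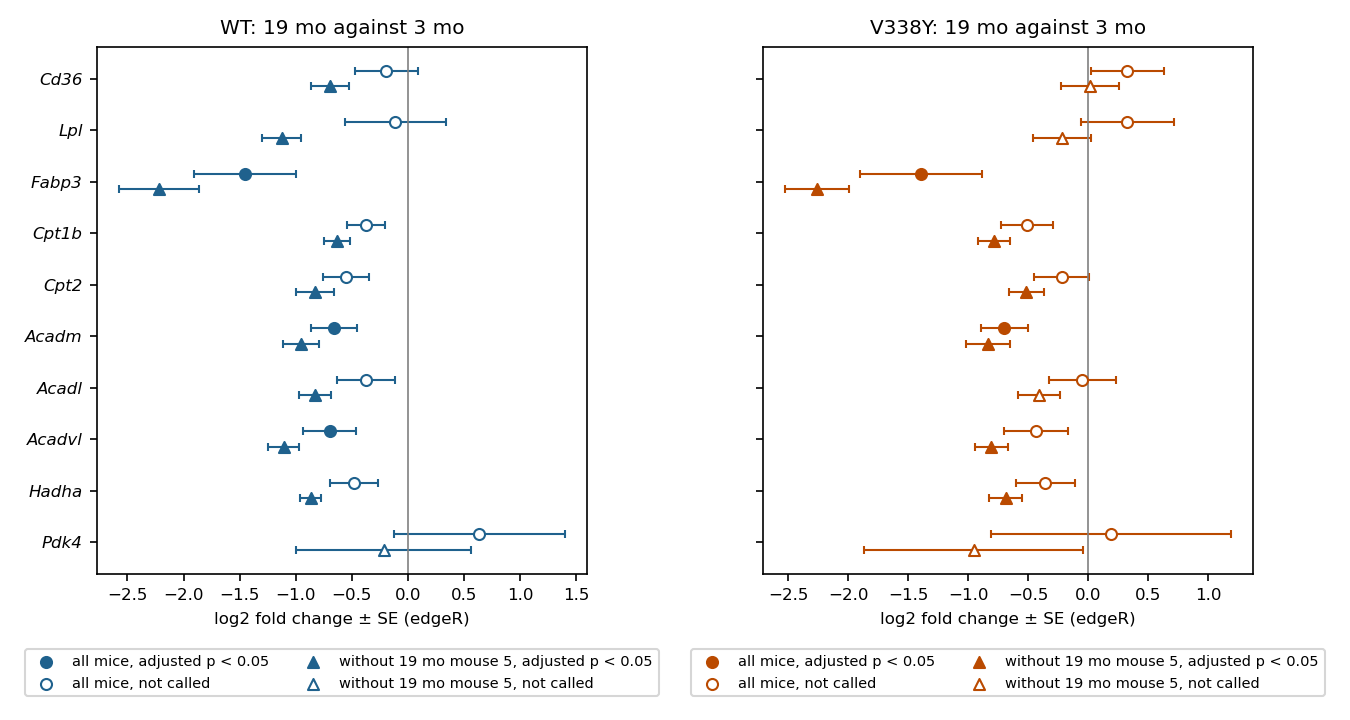
Log2 fold change from 3 to 19 mo (x axis, edgeR, bars ± SE) of the 10 genes (y axis) in WT (left) and V338Y mice (right), with all mice (circles) and without 19 mo mouse 5 (triangles), filled where the adjusted p is below 0.05. Without that mouse, the highest of its group for all 10 genes, 9 genes in WT and 6 in V338Y mice are called lower.

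The values of mouse 5 moved with the fibre markers. Taking the mean centred log2 CPM of the 6 oxidation genes, WT mouse 5 was at 0.28 and V338Y mouse 5 at 0.45, within or just above the range of -0.03 to 0.43 of the 3 mo mice, while the other 19 mo mice were at -0.68 to -0.26. These 2 mice also had the highest sum of slow and oxidative fibre markers, given above. The 3 mo mice had marker sums of 439 to 1051 CPM. Within WT mice at 3 mo the order was not shared. Mouse 1 had the lowest sum, 439 CPM, and the highest oxidation genes, at 0.43, and mouse 2 the highest sum, 651 CPM, and the lowest, at 0.12. Within V338Y mice at 3 mo, mouse 4 was lowest in both, at 595 CPM and -0.03, and mouse 2, with the highest sum, was at 0.32. Among the other mice at 19 mo, WT mouse 2 had the lowest marker sum of all 15 mice, 311 CPM, and the lowest oxidation genes, at -0.68. V338Y mice 3 and 4 followed, with sums of 521 and 640 CPM and oxidation genes at -0.63 and -0.65. WT mouse 4 was at 844 CPM and -0.44, and V338Y mouse 2 at 1004 CPM and -0.26, so that the oxidation genes and the markers had nearly the same order in these 5 mice. Single markers did not all follow the sum. Myh7, Tnni1 and Tnnt1 were higher in every WT mouse at 19 mo, mouse 2 included, than in every WT mouse at 3 mo. Their log2 age changes (edgeR) were 5.91, 4.64 and 3.58 in WT mice, all called, and 4.42, 2.85 and 3.25 in V338Y mice, none called. Of the other markers Myl2, Myl3, Tnnc1 and Atp2a2 were called higher in WT mice and Myh2 was not. The part of fibre composition in the values was not tested. The genes of the TCA cycle and the respiratory chain were highest in mouse 5 too, in 15 of 17 and 16 of 18 genes in WT and in 15 of 17 and 18 of 18 in V338Y mice.

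**Figure D4:**
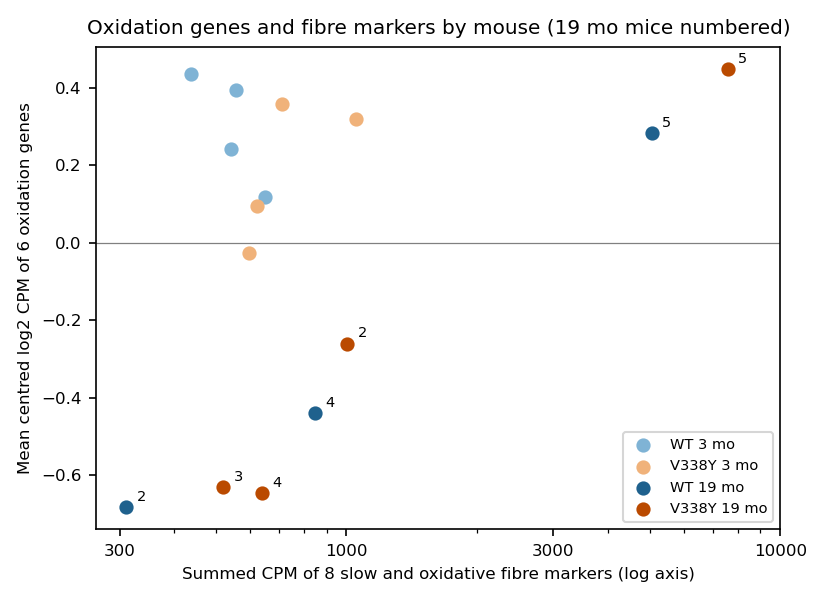
Mean centred log2 CPM of Cpt1b, Cpt2, Acadm, Acadl, Acadvl and Hadha (y axis) against the summed CPM of 8 slow and oxidative fibre markers (x axis, log scale) in the 15 mice, coloured by group, with the 19 mo mice numbered. Both mice numbered 5 lie to the right at 5054 and 7567 CPM and at the height of the 3 mo mice.

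The comparison of the genotypes asks whether the V338Y exchange shifts these genes in young or in old muscle. At 3 mo 0 of the 10 genes were called by edgeR, and 2 had an unadjusted p below 0.05, Cd36 and Lpl, as had 1293 of the 13333 genes tested. Of all genes tested 0.075% were called, 10 of 13333. DESeq2 called 0 members as well, with the same 2 at an unadjusted p below 0.05, while a fit of all 15 mice (edgeR) left 0 members below it. The median log2 difference of V338Y from WT was -0.11 over the members and 0.00 over all genes tested. Cd36, with the 3 mo values given above, was lower in every V338Y mouse than in every WT mouse (384 ± 61.3 against 498 ± 52.8 CPM, SD, n = 4 each), as 4.71% of the genes tested did not overlap between the groups. Its log2 difference was -0.37 ± 0.12 and that of Lpl -0.38 ± 0.12, both with an edgeR adjusted p of 0.40. The 6 adipocyte markers lay on the lower side too, from -1.25 (Plin1) to -0.57 (Cfd), with a median sum of 205 CPM in V338Y against 380 CPM in WT mice and 0 of them called, and their part in Cd36 and Lpl was not tested. In Lpl mouse 1 was the highest of each group, and V338Y mouse 1, at 482 CPM, overlapped with the WT mice. Of the other 8 members the differences ran from -0.23 to 0.37, with edgeR adjusted p from 0.57 to 1.0, which leaves differences of this size undecided with 4 mice a group.

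At 19 mo 0 of the 10 genes were called between the genotypes, and 0 had an unadjusted p below 0.05 in edgeR or in DESeq2, where edgeR called 0.0434% of the genes tested, 6 of 13833. The ranges of the genotypes overlapped for all 10 members, while 9.79% of the genes tested did not overlap. The log2 differences of V338Y from WT lay between -0.13 and 0.20, with standard errors of 0.27 for Acadm to 1.34 for Pdk4, so that only differences far larger than those found could have been detected. The deviations of same-numbered mice from their group means correlated at 0.13 to 0.37 at this age, and those of V338Y mouse 3 and WT mouse 2 at 0.42. No label pairs the mice by number, so the block and the ratios within numbers below are a description and cannot decide on the genotype. With the mouse number as a block, 110 of all genes and 0 members were called (edgeR). In that fit 3 members had an unadjusted p below 0.05, Cd36, Lpl and Pdk4, as had 2583 of the 13833 genes tested. Each of the 3 was higher in V338Y mice by 0.39 to 0.57 on the log2 scale, with edgeR adjusted p from 0.17 to 0.23. Without the block the 6 adipocyte markers were at 0.75 (Lep) to 1.56 (Retn) in V338Y against WT mice at this age, with median sums of 415 and 172 CPM and 0 of them called, and their part was not tested. Within the numbers, V338Y was the higher for 9 of the 10 genes in mice 2, for 4 in mice 4 and for 9 in mice 5, with median ratios of 1.49, 0.90 and 1.14. Cd36, Lpl, Pdk4 and Acadl were higher in the V338Y mouse of each of the 3 numbers, with ratios of 1.02 to 1.88, and the other 6 members changed direction between numbers. The age difference was not shown to depend on the genotype for any member. In the interaction of age and genotype 0.0% of 14128 genes were called, and 0 members had an unadjusted p below 0.05 in edgeR or DESeq2. The differences between the log2 age changes ran from -0.46 for Pdk4 to 0.51 for Cd36 with standard errors of 0.31 to 1.44. Without WT mouse 5 at 19 mo, Cd36 and Lpl had an unadjusted p below 0.05 (edgeR), as had 1720 of the 14396 genes tested. Lpl had one also without both mice numbered 5, and with the block. In each of these fits 0 members were called.

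Beside the members, 59 other genes of the pathway were counted, all of which passed the filter on low counts. In WT mice 30 were lower and 7 higher at 19 mo, with a median log2 fold change of -0.54, and in V338Y mice 14 were lower and 7 higher, with a median of -0.22. Of all genes tested, 17.8% and 22.5% were lower, so the count of lower genes in V338Y mice lies near the background, and 2505 of 13657 and 3389 of 13868 were higher. The same mouse led in them, as WT mouse 5 was highest for 44 and V338Y mouse 5 for 41 of the 59, and without it 34 and 27 were lower. The 12 genes of mitochondrial beta-oxidation were on the lower side in both genotypes, with 10 called in WT and 4 (Acad9, Hadh, Eci2 and Decr1) in V338Y mice. Genes given in brackets after such a count were named once their values were seen. Hadhb, the partner of Hadha in the trifunctional protein, fell by 0.68 ± 0.18 in WT mice (edgeR adjusted p = 0.018) and was at -0.63 ± 0.25 in V338Y mice (edgeR adjusted p = 0.063). Etfdh, which passes the electrons of the dehydrogenases to ubiquinone, was at -0.75 ± 0.24 in WT mice and -0.51 ± 0.28 in V338Y mice, and was called in WT mice alone.

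Transport and activation were mixed. Of the 7 uptake genes 2 were lower (Fabp4 and Fabp5) and 1 higher (Lmf1) in WT mice, and 1 was higher (Lmf1) in V338Y mice. Fabp4, the binding protein of fat cells and capillaries, was at -1.57 ± 0.48 in WT mice (edgeR adjusted p = 0.030) and at 0.52 ± 0.43 in V338Y mice (edgeR adjusted p = 0.34). It was highest in WT mouse 1 at 3 mo, at 809 CPM, and in V338Y mouse 4 at 19 mo, at 518 CPM, which had the highest sums of adipocyte markers too, 708 and 834 CPM. Slc27a1, a fatty acid transporter of muscle, was at -0.09 ± 0.34 and 0.39 ± 0.31 and was not called. Of the 6 genes of activation 3 were lower and 1 higher (Acsl6) in WT mice, and 1 was lower (Acsl3) and 1 higher (Acsl5) in V338Y mice. Acsl1, the main acyl-CoA synthetase of muscle, fell by 0.88 ± 0.28 in WT mice (edgeR adjusted p = 0.038) and was at -0.22 ± 0.25 in V338Y mice. Dbi, which binds the acyl-CoA formed, fell by 0.81 ± 0.19 in WT mice and was at -0.22 ± 0.17 in V338Y mice. Acsl3, an acyl-CoA synthetase of the endoplasmic reticulum that was singled out after its values were seen, fell by 1.63 ± 0.19 and by 2.04 ± 0.14 (edgeR adjusted p = 0.000463 and 1.85e-05). At 3 mo Acsl1 was lower in each V338Y mouse than in each WT mouse, at 289 to 373 against 418 to 542 CPM. Of the genes tested 4.71% did not overlap between these groups. The log2 difference of Acsl1, -0.52 ± 0.10, had an edgeR adjusted p of 0.14.

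Among the 6 carnitine and malonyl-CoA genes 3 were lower in WT (Slc25a20, Crat and Slc22a5) and 2 in V338Y mice (Slc25a20 and Crat). Crat, which buffers acetyl groups as carnitine esters, fell by 0.54 ± 0.12 and 0.50 ± 0.12 (edgeR adjusted p = 0.0086 and 0.0089). Its ages did not overlap in either genotype, as 43.4% and 42.2% of the genes tested did not. Acacb, which makes the malonyl-CoA that inhibits Cpt1b, was at 0.38 ± 0.17 and 0.39 ± 0.20 and was not called. Of the 6 peroxisomal genes 4 were lower in WT (Ehhadh, Hsd17b4, Crot and Abcd3) and 2 in V338Y mice (Crot and Abcd3). Abcd3, a peroxisomal acyl-CoA transporter, fell by 0.58 ± 0.08 and by 0.40 ± 0.14. Of the 9 other genes around pyruvate dehydrogenase 5 were lower (Pdp1, Pdha1, Pdhb, Dlat and Pdhx) and 2 higher (Pdk2 and Pdk3) in WT mice, and 4 lower (Pdk1, Pdha1, Pdhb and Pdhx) and 1 higher (Pdk2) in V338Y mice. Pdk2, the constitutive kinase of the complex and likewise named after its values were seen, rose by 1.13 ± 0.16 and 0.86 ± 0.11 (edgeR adjusted p = 0.00124 and 0.000404). Pdha1, the catalytic subunit, fell by 0.63 ± 0.13 and by 0.59 ± 0.16. Dlat, the core of the complex, fell by 0.61 ± 0.11 in WT mice and was at -0.31 ± 0.17 in V338Y mice.

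**Figure D5:**
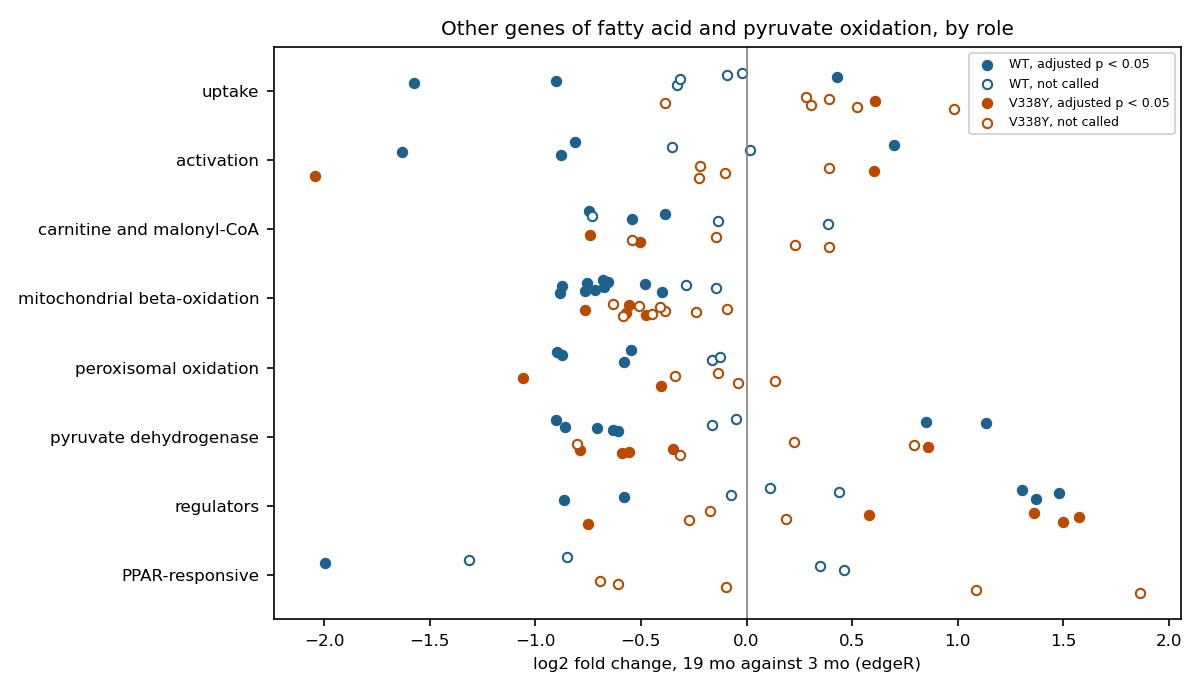
Log2 fold change from 3 to 19 mo (x axis, edgeR) of 59 other genes of fatty acid and pyruvate oxidation, by role (y axis), in WT and V338Y mice. Filled points have an adjusted p below 0.05, 37 in WT and 21 in V338Y mice, and the 12 genes of mitochondrial beta-oxidation all lie to the left of 0.

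The regulators did not move as a body. Of 8, 3 were higher and 2 lower in WT mice, and 4 were higher and 1 lower in V338Y mice. Of all genes tested 36.2% were called in either direction in WT and 46.9% in V338Y mice. Ppard, the PPAR of muscle fibres, rose by 1.48 ± 0.24 and 1.57 ± 0.27 on the log2 scale, from 3.56 to 6.84 CPM at 3 mo to 10.3 to 20.1 CPM at 19 mo (edgeR adjusted p = 0.0020 and 0.0014). Ppargc1b, a coactivator of ERR alpha, rose by 1.3 ± 0.23 and 1.36 ± 0.26, and Foxo1, a forkhead factor active in fasting, by 1.37 ± 0.36 and 1.5 ± 0.32. Ppargc1a, which encodes PGC-1 alpha, rose by 0.58 ± 0.15 in V338Y mice (edgeR adjusted p = 0.012) and was at 0.44 ± 0.19 in WT mice (edgeR adjusted p = 0.10). Esrra, which encodes ERR alpha, fell by 0.86 ± 0.19 and by 0.75 ± 0.17 (edgeR adjusted p = 0.0073 and 0.0055). Lpin1, a coactivator of PPAR alpha, fell by 0.58 ± 0.17 in WT mice and was at -0.27 ± 0.17 in V338Y mice. Ppara was at -0.07 ± 0.44 and 0.19 ± 0.44, and Prkaa2, the catalytic alpha subunit of AMP kinase in muscle, at 0.11 ± 0.09 and -0.17 ± 0.14, and neither was called. Among genes known to respond to PPARs, Ucp3, an uncoupling protein homologue of muscle, was at -0.85 ± 0.38 and -0.69 ± 0.49, and Plin5, the lipid droplet protein of oxidative tissue, at -1.31 ± 0.48 and -0.61 ± 0.58, and neither was called.

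The genes of the TCA cycle and of the respiratory chain, which receive the products of beta-oxidation, were lower with age for the most part. Of 17 TCA cycle genes 12 were lower in WT mice (median log2 fold change -0.48) and 10 in V338Y mice (median -0.49), while Ogdh, a subunit of the oxoglutarate dehydrogenase complex, was at 0.40 in WT mice and rose by 0.45 in V338Y mice. Of 18 respiratory chain genes 18 and 17 were lower, with medians of -0.65 and -0.66. Of all genes tested 17.8% were called lower in WT and 22.5% in V338Y mice. Ranges within the respiratory chain, -1.10 to -0.48 and -0.97 to -0.47, included the fold changes of the 6 oxidation members in part only. Between genotypes 0 genes of either list were called at 3 or 19 mo.

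The genes most like the members in profile, by the root mean square difference of centred log2 CPM over the 15 mice among 7354 non-member genes, were the following. The mean of the 6 oxidation members was most closely followed by Hsdl2, a peroxisomal dehydrogenase-like protein, at a difference of 0.087, Ech1, an isomerase of unsaturated fatty acid oxidation, at 0.11, and Chkb, the neighbour of Cpt1b, at 0.11. Chkb lay close to Cpt1b in every mouse, for example at 301 against 286 CPM in WT mouse 1 at 3 mo. Cpt1b is part of this mean, and reads of the 2 genes may have been divided between them, as said above. The likeness of Chkb is thus not independent of the members. The mean profile itself varied by 0.41 and the median gene by 0.26. Cd36 was nearest to Slc27a1 (0.17), Aifm2 (0.22) and Cat (0.22), and Lpl to Slc27a1 (0.30), Fam126b (0.35) and Ppara (0.36). Fabp3 was nearest to Plin5 (0.39), St3gal5 (0.45) and Ckmt2 (0.55). Pdk4, which itself varied by 1.67, was nearest to Slc25a34 (0.86), Chac1 (1.02) and Ucp3 (1.04). Slc25a34, a mitochondrial carrier, was at 1.68, 4.31 and 1.94 CPM in the WT mouse 2 and V338Y mice 2 and 3 that had the lowest Pdk4, and at 5.62 CPM or more in the others.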

How the data were processed

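Total RNA of quadriceps from 15 mice had been sequenced, and the values that the authors deposited are expected counts of genes from RSEM with Ensembl 75, in whole numbers and scaled neither by depth nor by length. The submitters' notes name STAR 2.4.2a, CASAVA 1.8, bcl2fastq 1.8.4 and GRCm38. Symbols and positions came from GENCODE vM21 of GRCm38, matched by identifier for 37607 of 39179, and every row was a gene. Groups, ages and mouse numbers were taken from the titles. Between mice of a group, counts differed by 5.47 to 101 times sampling noise (chi-square per degree of freedom), so none was a duplicate.

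Counts were analysed with edgeR 4.0.16 in R 4.3.3. A gene was kept where 50% or more of the mice of a compared group had 10 counts or more, library sizes were TMM normalized, and the quasi-likelihood test was run on the compared groups, or on all 15 mice for the interaction. P-values were adjusted by Benjamini-Hochberg over all genes tested and called below 0.05. SE is the fold change divided by the root of the F statistic. P-values set the difference between groups against the spread between mice. The scripts were tested on simulated data.

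Alternatives were DESeq2 1.42.0, RLE and upper-quartile factors, other filters, the mouse number as a block, a fit of all mice, an unadjusted p below 0.005 for age (the study's threshold), and leaving out each mouse. Deviations of same-numbered mice at 19 mo correlated at 0.13, 0.21 and 0.37, below the 0.42 reached between mice of different numbers. No label pairs the mice, and a pairing by number would come from these same data. The block at 19 mo is therefore given as an alternative only. The members and lists were chosen with earlier results of these data known. Named beside the 10 members were the 2 most abundant genes of each pathway role, all regulators, Mrps5, Xist, Ddx3y and the 3 nearest profiles (pseudocount 0.5 CPM, mean of at least 10 CPM) of each member outside oxidation and of the oxidation mean. Some genes of the pathway lists are counted but not reported here by name. Lengths are those of 1 CCDS transcript.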

Additional observations from a re-analysis of the deposited data

Results flagged for a closer look

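Mice far from the others of their group were sought in the groups of 4 mice, for the 10 genes and 7 marker lists. Of 51 groups tested 4 had such a mouse, and chance gives about 1 in 20. Lpl was at 637 CPM in WT mouse 1 at 3 mo, against 471 to 494 CPM in the other 3, and at 482 CPM in V338Y mouse 1 at 3 mo, against 366 to 378 CPM. Adipocyte markers summed to 708 CPM in that WT mouse and 504 CPM in that V338Y mouse, the highest sum of each group, and their part in Lpl was not tested. The slow and oxidative fibre markers summed to 7567 CPM in V338Y mouse 5 at 19 mo, against 521 to 1004 CPM in the other 3. The erythroid markers summed to 252 CPM in WT mouse 4 at 3 mo, against 123 to 141 CPM in the other 3.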

How the results depend on the processing

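Most of the members' calls with age were lost when some single mouse, young or old, was left out. Without WT mouse 3 at 3 mo 0 members were called in WT mice. Without any 1 of the V338Y mice at 3 mo, 1 member was called in V338Y mice. Sex cannot be told apart from age at all. Over all genes the calls with age ran from 3431 to 4837 in WT and from 5182 to 6448 in V338Y mice as each mouse was left out. The members called between the ages, 3 in WT and 2 in V338Y mice, ran from 0 to 9 and from 1 to 6 as each mouse was left out, most without the 19 mo mice numbered 5, and the pathway genes called, 37 and 21, from 22 to 39 and from 17 to 35. Over the same fits the log2 fold change with age ran in WT mice from -0.69 to 0.082 for Cd36, -1.12 to 0.25 for Lpl, -0.22 to 1.19 for Pdk4, -0.75 to 0.19 for Slc27a1 and -1.0 to 0.24 for Ppara. In V338Y mice it ran from -0.22 to 0.58 for Lpl, -0.41 to 0.12 for Acadl, -0.96 to 0.61 for Pdk4 and -0.63 to 0.39 for Ppara. With no filter 5 members were called in WT mice, with a fit of all 15 mice 1, and at an unadjusted p below 0.005 the count was 0 in both genotypes.

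The mouse numbers do not pair the ages, as same-numbered mice correlated at -0.13 to 0.01 across them. With a block for the number 8 members were called in WT mice (2229 of all genes, against 4940 without it). In V338Y mice 6 members and 32 pathway genes were called (5505 of all genes, against 6505 without it). Under that block the age change of Pdk4 was -1.18 in WT mice and -2.69 in V338Y mice, and in V338Y mice that of Cd36 was -0.11, of Lpl -0.21 and of Ppara -0.60. The numbers do not pair the 3 mo mice either, with correlations of -0.20 to 0.12. Between genotypes at 19 mo the block called 110 of all genes and 1 pathway gene, against 6 and 0 without it, and 28 genes in the interaction, against 0. It changed no call of the members between genotypes.

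Members called between genotypes or in the interaction were 0 under every alternative run. Of all genes, the 10 called at 3 mo became 33 without the filter and 66 with DESeq2, each with 1 pathway gene, and 3 to 14 as each mouse was left out. The 6 at 19 mo became 14 without the filter, 62 with DESeq2 and 2 to 7 as each mouse was left out. In the interaction 5 genes were called without the filter and 26 with DESeq2. Leaving out both 19 mo mice numbered 5 from the genotype comparison, an alternative chosen after seeing the data, also called 0 members. The causes were not tested.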
